A study of Mus musculus with 12 samples.

Results

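The genes described here are 33 transcripts of the p53 response and of the apoptosis machinery in mouse microglia: the p53 gene and its targets, the BCL2 family, the initiator caspase gene Casp8 with the apoptosome gene Apaf1, death receptors, and the inhibitors of apoptosis. They were taken from a named list, and a member was kept when at least 10 reads were counted in 3 or more libraries. All 33 listed genes met that rule, and all 33 were among the 18842 genes tested, of 55421 in the deposited table. Casp8 was the only caspase on the list, so the other caspases are given with the further genes of the pathway.

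Messenger RNA was measured by sequencing in 12 libraries of microglia, the resident macrophages of the brain, from mice labelled male and aged 35 to 40 postnatal days. Every group carried the Cx3cr1EGFP reporter allele. WT here means Cx3cr1EGFP alone, and KO means Slc2a5-/-::Cx3cr1EGFP, which also lacks Slc2a5, the gene of the fructose transporter GLUT5. Per the labels, cells were sorted by flow cytometry and cultured for 6 h without oxygen and glucose (oxygen-glucose deprivation, OGD), which models ischaemia in a dish. Libraries taken at once are called WT-OGD or KO-OGD, and those taken after 24 h of recovery are called WT-recovery or KO-recovery, with 3 libraries in each of the 4 groups. No library of cells without OGD was analysed here. Nothing in the labels says that the libraries of a group came from separate animals or cultures, so p-values measure only the spread between these libraries.

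p53 is a transcription factor that is held at a low level by the ubiquitin ligase Mdm2 and accumulates when DNA is damaged or when cells lack oxygen or nutrients. Its targets halt the cell cycle, aid repair and tune metabolism, and some of them open the mitochondrial route to apoptosis. On that route BH3-only proteins release Bax and Bak from restraint by survival proteins such as Bcl2, and cytochrome c then assembles Apaf1 into the apoptosome, while death receptors such as Fas act through Casp8.

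A few facts of the libraries touch the results. Total counts were 31509859 to 45347118 in the OGD libraries and 9885259 to 19915479 in the recovery libraries, so genes with few reads had the wider error after recovery. All 10 microglia markers had reads in every group, with a summed level of 2423 to 3428 CPM (counts scaled to a common library size). The summed level of 11 astrocyte markers was 129 to 186 CPM in WT-OGD, 55.0 to 76.3 in KO-OGD, 168 to 192 in WT-recovery, but 81.8 to 121 in KO-recovery, with 1 marker at 0 in KO-OGD and 1 in WT-recovery. That of 12 proliferation genes was 326 to 376 CPM in WT-OGD, 214 to 249.9 in KO-OGD, 467 to 497 in WT-recovery, against 483 to 497 in KO-recovery. Neuron markers summed to 26.0 to 38.2 CPM in WT-OGD, 9.30 to 16.1 in KO-OGD, 85.5 to 102 in WT-recovery, against 18.8 to 32.3 in KO-recovery, with 1 marker at 0 in WT-recovery. The 9 oligodendrocyte-lineage markers summed to 148 to 155 CPM in WT-OGD, 139 to 141 in KO-OGD, 296 to 351 in WT-recovery, against 239.8 to 293 in KO-recovery, with none at 0. The 10 muscle and connective tissue genes reached 482 CPM in KO-recovery and stood at 22.2 CPM in its lowest library, against 15.0 to 107 CPM in the other groups. WT-recovery replicate 1 had the highest mitochondrial share, 18.4% of counts. In the OGD groups Slc2a5 lay at 1.10, 1.18 and 1.21 CPM in WT and 0.402, 0.131 and 0.465 CPM in KO, and after recovery it was at or below 0.122 CPM in all 6 libraries, where it cannot check the labels. Xist, the RNA of the inactive X chromosome in female cells, lay between 150.8 and 354 CPM in 9 libraries and at 0, 0.183 and 0 CPM in the WT-recovery group, although all mice were labelled male, so sex and genotype cannot be told apart after recovery.

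The DNA sequence that p53 binds is a pair of decamers, and stretches of member promoters that hold a pair or a single decamer are shown first. RefSeq promoter windows (GRCm38.p6, 250 bases before the start to 50 after it) were found for 29 of the 33 genes, 43 windows in all. A pair of adjacent p53 decamers with at most 1 base off the consensus, on either strand, was found in 2 of these 43 windows and in 0.0883% of all 32851 windows, and the members were Cdkn1a and Ccng1. A single decamer with no base off was found in windows of 10 members, in 25.6% of the 43 windows against 8.36% of all windows. The capitals mark decamers in the strand of each gene: a pair for Cdkn1a and Ccng1, and a single one for Mdm2, Gadd45a and Sesn1. They end 32 (Cdkn1a), 176 (Ccng1), 177 (Mdm2), 31 (Gadd45a) and 164 (Sesn1) bases before the RefSeq start of their own window. With 43 windows for 29 genes, that start can be 1 of several for a gene. In GENCODE M21 the marked bases lie outside annotated genes for Cdkn1a, Ccng1 and Mdm2, inside the gene's own annotated span for Sesn1, and inside the spans of both Gadd45a and the opposite-strand gene E230016M11Rik for Gadd45a. A match of letters does not show that p53 was bound in these cells.
Cdkn1a, chr17:29090908-29090967, plus strand: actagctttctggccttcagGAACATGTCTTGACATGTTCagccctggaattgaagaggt
Ccng1, chr11:40755442-40755501, minus strand: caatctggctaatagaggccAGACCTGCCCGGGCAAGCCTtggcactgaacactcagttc
Mdm2, chr10:117710915-117710964, minus strand: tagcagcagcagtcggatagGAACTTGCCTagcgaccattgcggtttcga
Gadd45a, chr6:67037418-67037467, minus strand: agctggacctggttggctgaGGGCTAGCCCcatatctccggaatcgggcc
Sesn1, chr10:41887246-41887295, plus strand: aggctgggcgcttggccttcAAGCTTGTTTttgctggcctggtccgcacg

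Levels were compared between genes only per length, as the mean CPM per kilobase of annotated exon. In WT-OGD the survival genes Bcl2a1b and Mcl1 were highest, at 126 and 109.9 CPM per kilobase, followed by Gadd45a at 93.5, Bax at 73.4 and Cdkn1a at 63.1. The lowest were Bcl2 at 1.37, Bmf at 1.03, Tnfrsf10b at 0.994 and Eda2r at 0.514 CPM per kilobase. Bcl2a1b has near-identical copies (Bcl2a1a, Bcl2a1d), so its share of their reads is uncertain. The exons of 9 members overlap another annotated gene (Bad, Bak1, Bax, Bcl2, Bcl2a1b, Bid, Cdkn1a, Diablo and Gadd45a), and how reads over both genes were counted is not given in the sources used here.

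Over the 24 h of recovery the apoptosis and p53 genes moved in both directions. In WT, 13 of the 33 rose and 9 fell by edgeR's quasi-likelihood test, with a Benjamini-Hochberg adjusted p, over the 18842 genes, below 0.05. In KO, also 13 rose and 9 fell. Of all genes tested 56.8% were called in WT (26.9% higher, 29.9% lower) and 59.0% in KO (29.3% higher, 29.6% lower), so 22 of 33 is a share close to that of all genes. OGD and recovery libraries did not overlap for 23 of the 33 in WT and 22 in KO, as for 67.1% and 61.2% of all genes. The median log2 fold change of the members was 0.09 in WT and 0.08 in KO, against -0.03 and 0.00 over all genes. The WT and KO comparisons share no library: 16 genes were called in both and in the same direction, 9 higher and 7 lower, which is 72.7% of each list, and none was called in opposite directions. Over all genes tested, those called in both in the same direction were 77.4% of the WT list and 74.5% of the KO list, so the share among the members is close to that of all genes. As these are sums over many cells, fewer cells of a type and less RNA per cell cannot be told apart. Oligodendrocyte-lineage markers were higher after recovery, 9 of 9 called in WT and 8 of 9 in KO, and their part in the recovery values was not tested. Xist was all but absent after recovery in WT alone, so sex make-up and recovery cannot be told apart in the WT values.

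**Figure D1:**
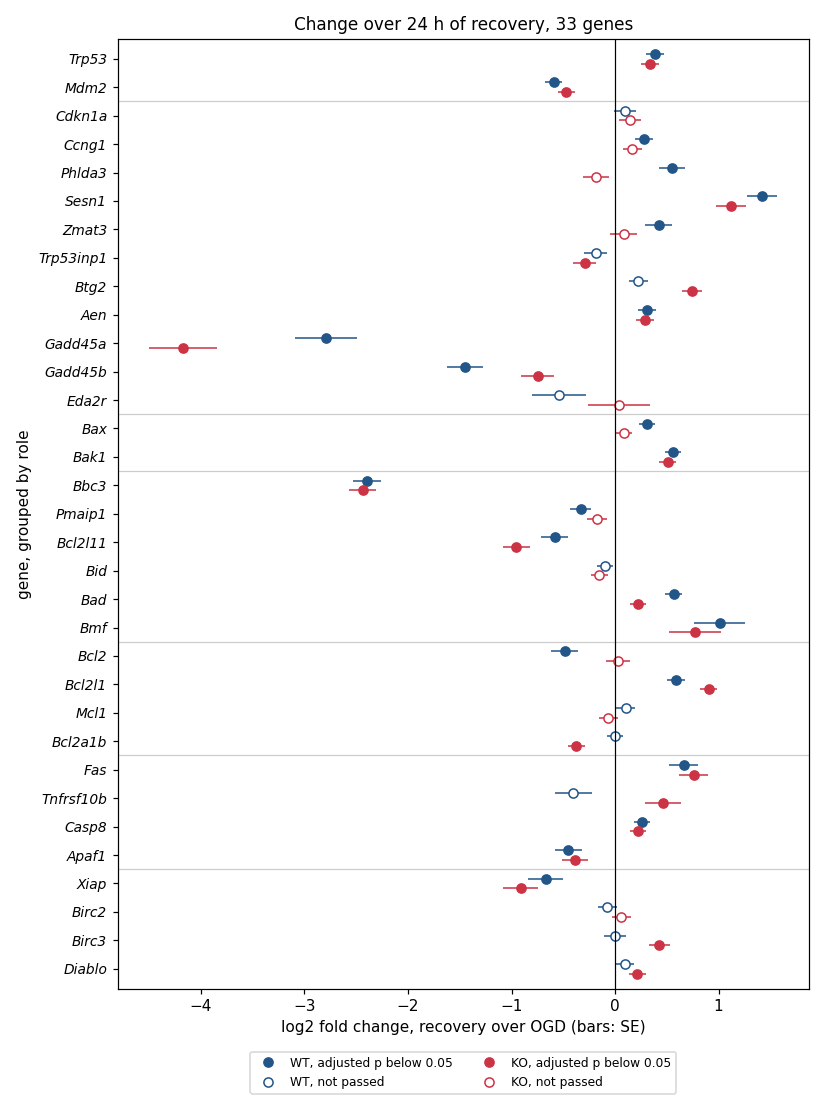
Log2 fold change from OGD to recovery (horizontal axis, bars are SE) for the 33 genes, ordered by role, in WT (blue) and KO (red); filled points passed an adjusted p of 0.05. Gadd45a and Bbc3 lie farthest to the left in both genotypes and Sesn1 farthest to the right in both.

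The p53 gene and its regulator moved in opposite directions. Trp53 lay at 59.7, 61.9 and 61.7 CPM in WT-OGD and 85.9, 72.5 and 81.7 CPM in WT-recovery, and at 64.3, 53.5 and 61.7 CPM in KO-OGD and 75.6, 80.4 and 71.2 CPM in KO-recovery. All recovery libraries lay above all OGD libraries, with log2 fold changes of 0.39 (SE 0.09, adjusted p = 0.00158) in WT and 0.34 (SE 0.09, adjusted p = 0.00378) in KO. With the summed astrocyte-marker level as a covariate the KO value was 0.22 and the call ended (adjusted p = 0.207). That level did not overlap between KO-OGD and KO-recovery, so the covariate cannot tell astrocyte RNA from recovery in KO. Mdm2, itself a p53 target, fell from 139, 151 and 136 CPM to 104, 88.7 and 90.0 CPM in WT and from 151, 147 and 145 CPM to 102, 105 and 113 CPM in KO. The falls were -0.59 (adjusted p = 1.88e-05) and -0.47 (adjusted p = 1.42e-04), and OGD and recovery libraries did not overlap in either genotype.

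The DNA damage and stress-inducible genes Gadd45a and Gadd45b, whose proteins act on p38 and JNK signalling, fell in both genotypes. Gadd45a stood at 156, 192 and 147 CPM in WT-OGD and at 22.3, 27.1 and 21.7 CPM in WT-recovery. In KO it stood at 196, 83.1 and 190.4 CPM after OGD and at 10.0, 7.92 and 7.98 CPM after recovery. KO-OGD replicate 2 was thus less than either other library of its group by a wide margin, yet remained above every recovery library. The falls had log2 fold changes of -2.79 (SE 0.30, adjusted p = 2.32e-05) in WT and -4.17 (SE 0.33, adjusted p = 1.93e-06) in KO. The difference between those falls was -1.38 (SE 0.43, adjusted p = 0.0984), and it was -1.69 (adjusted p = 2.04e-04) without KO-OGD replicate 2. Gadd45b fell from 12.03, 13.4 and 13.2 CPM to 6.85, 4.15 and 3.62 CPM in WT (-1.45, adjusted p = 5.65e-06) and from 17.1, 14.0 and 15.5 CPM to 9.17, 10.4 and 8.35 CPM in KO (-0.75, adjusted p = 8.12e-04).

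Sesn1, a sestrin gene whose protein restrains mTORC1 signalling, was the member with the largest rise. It lay at 27.5, 24.3 and 27.9 CPM in WT-OGD and at 63.3, 77.3 and 71.9 CPM in WT-recovery (log2 fold change 1.42, SE 0.15, adjusted p = 1.65e-06). In KO it went from 23.4, 35.9 and 23.1 CPM to 65.0, 58.1 and 55.5 CPM (1.12, SE 0.15, adjusted p = 1.38e-05). Aen, a p53-induced nuclease gene, rose by 0.31 in WT and 0.29 in KO (adjusted p = 0.00816 and 0.00958). Without KO-recovery replicate 3 the KO value of Aen was 0.19 and the call ended (adjusted p = 0.0698).

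Several p53 targets passed in one genotype alone, and for most of these the difference between genotypes did not pass. The cell cycle gene Ccng1 (cyclin G1) rose in WT from 184, 177 and 168 CPM to 212, 212 and 219 CPM (0.28, adjusted p = 0.0166), a call that ended when WT-OGD replicate 3 (0.25, adjusted p = 0.0569) or WT-recovery replicate 3 (0.25, adjusted p = 0.0629) was left out, and its KO value was 0.16. Zmat3, an RNA-binding protein gene, rose by 0.42 in WT (adjusted p = 0.0117) and stood at 0.08 in KO. Trp53inp1, which encodes a cofactor of p53, fell by 0.29 in KO (adjusted p = 0.0292), a call lost without KO-OGD replicate 2 or 3 or KO-recovery replicate 1 or 2 (-0.24 to -0.30, adjusted p = 0.0501 to 0.0901). With the covariate it stood at -0.14 (adjusted p = 0.501), and without both libraries with muscle and connective tissue transcripts at -0.49 (adjusted p = 0.0172). The genotype difference in these changes had adjusted p of 0.671 for Ccng1, 0.318 for Zmat3 and 0.76 for Trp53inp1. Cdkn1a, the gene of the cell cycle inhibitor p21, did not pass in either genotype (0.10 and 0.14), but passed in KO without KO-recovery replicate 3 (0.23, adjusted p = 0.0453).

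Phlda3 and Btg2 were the members whose recovery change differed between genotypes, against 5.25% of all genes called for that difference (2.89% higher, 2.36% lower). Phlda3, whose protein is a p53-induced inhibitor of Akt, lay at 40.0, 44.0 and 48.1 CPM in WT-OGD and 78.7, 56.3 and 59.5 CPM in WT-recovery, a rise of 0.55 (adjusted p = 0.00190). In KO it lay at 42.7, 50.3 and 44.9 CPM after OGD and 35.5, 46.8 and 39.6 CPM after recovery, where the groups overlap (-0.18, adjusted p = 0.233). The difference was -0.73 (SE 0.18, adjusted p = 0.0308). Btg2, an antiproliferative p53 target, rose in KO from 21.3, 17.8 and 21.5 CPM to 35.3, 30.1 and 35.7 CPM (0.74, adjusted p = 9.65e-06). In WT it stood at 31.4, 31.5 and 30.9 CPM and then at 33.5, 38.7 and 37.1 CPM (0.23, adjusted p = 0.0559), which passed without WT-recovery replicate 1 (0.27, adjusted p = 0.0378), KO-OGD replicate 2 or KO-recovery replicate 2. The WT rise of Btg2 also passed with DESeq2 or RLE normalization (0.26 and 0.27) and with only the 6 libraries compared (0.26). It did so too without both libraries of highest mitochondrial share (0.30) and with libraries thinned to equal depth (0.31). The difference was 0.52 (SE 0.14, adjusted p = 0.0393). The call of Phlda3 was lost without any one of 6 libraries (replicates 1 and 2 of WT-OGD, 2 and 3 of KO-OGD, and 1 of each recovery group, -0.59 to -0.75, adjusted p = 0.0511 to 0.0815). That of Btg2 was lost without any one of WT-OGD, KO-OGD or WT-recovery replicates 1 to 3 or KO-recovery replicate 1 (0.43 to 0.56, adjusted p = 0.0539 to 0.105). The number of members called for the difference, 2, was 0 to 4 when single libraries were left out: none when replicate 2 of WT-OGD or 3 of KO-OGD was dropped, 4 when replicate 3 of KO-recovery was, 2 when replicate 2 of either KO group was, and 1 for any other library.

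Of the killers of the BCL2 family, Bak1 rose in both genotypes. Bak1 lay at 74.3, 77.2 and 75.8 CPM in WT-OGD and 117, 105 and 114 CPM in WT-recovery (0.56, adjusted p = 2.37e-05), and at 84.8, 82.6 and 84.9 CPM in KO-OGD and 116, 132 and 111 CPM in KO-recovery (0.51, adjusted p = 5.48e-05). Bax passed in WT, rising from 111, 124 and 112 CPM to 145, 145 and 140.2 CPM (0.31, adjusted p = 0.00357), and stood at 0.08 in KO (adjusted p = 0.384), with an adjusted p of 0.265 for the difference.

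BH3-only genes, which trigger Bax and Bak, split into falls and rises. Bbc3, which encodes Puma, a direct p53 target, fell most: it lay at 23.3, 25.8 and 25.3 CPM in WT-OGD and at 3.54, 5.49 and 4.73 CPM in WT-recovery. In KO it lay at 28.9, 24.3 and 26.3 CPM and then at 5.25, 4.90 and 4.50 CPM. These are falls of -2.40 (SE 0.13, adjusted p = 1.70e-09) and -2.44 (SE 0.13, adjusted p = 7.65e-10), with no overlap, and with a genotype difference of -0.04 (SE 0.19). Bcl2l11, the gene of Bim, fell from 62.2, 58.2 and 55.2 CPM to 29.1, 42.1 and 45.0 CPM in WT (-0.58, adjusted p = 0.00164) and from 61.4, 76.9 and 59.9 CPM to 33.7, 33.2 and 35.2 CPM in KO (-0.95, adjusted p = 2.16e-05). Pmaip1, the gene of Noxa, fell in WT by 0.33 (adjusted p = 0.0104) and stood at -0.17 in KO.

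In the other direction, Bad, whose protein binds Bcl2 and Bcl-xL, rose from 17.4, 17.5 and 18.0 CPM to 26.1, 27.7 and 24.6 CPM in WT (0.57, adjusted p = 2.49e-05). Its KO rise of 0.22 (adjusted p = 0.0233) was lost without KO-OGD replicate 3 or KO-recovery replicate 1 or 2 (0.17 to 0.23, adjusted p = 0.0536 to 0.107). Bmf, a BH3-only gene linked to loss of attachment, rose in WT from 5.42, 5.31 and 5.53 CPM to 6.74, 12.5 and 13.0 CPM (1.01, SE 0.24, adjusted p = 0.00265). In KO it went from 3.46, 4.76 and 3.36 CPM to 6.99, 4.08 and 8.30 CPM (0.77, SE 0.25, adjusted p = 0.0168). KO-recovery replicate 2 lay within the KO-OGD range, and replicates 1 and 3, the libraries with muscle and connective tissue transcripts, lay above it. With both of those left out the value of Bmf was 0.06 (adjusted p = 0.899). The call was also lost without KO-OGD replicate 1 or 3 or KO-recovery replicate 1 or 3 alone (0.55 to 0.71, adjusted p = 0.0604 to 0.097). Bid, which links death receptors to mitochondria, did not pass in either genotype (-0.10 and -0.15).

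Among survival genes, Bcl2l1 (Bcl-xL) rose in both genotypes. It lay at 92.7, 98.9 and 94.6 CPM in WT-OGD and 159, 139.5 and 131 CPM in WT-recovery (0.59, adjusted p = 3.29e-05), and at 96.3, 95.9 and 99.7 CPM in KO-OGD and 166, 195 and 185 CPM in KO-recovery (0.90, adjusted p = 3.61e-07). Bcl2 fell in WT from 13.2, 12.2 and 12.2 CPM to 9.82, 9.03 and 8.14 CPM (-0.49, adjusted p = 0.00414), while its KO value was 0.03 and the difference had an adjusted p of 0.103. Bcl2a1b fell in KO by 0.37 (adjusted p = 7.88e-04), as did its copies Bcl2a1a by 0.45 and Bcl2a1d by 0.32 (adjusted p = 0.0131 and 0.0191), although OGD and recovery libraries overlapped for both copies. In WT the values of these 3 copies were -0.00, -0.04 and -0.01. Mcl1, the member with the most reads, did not pass in either genotype (0.10 and -0.06).

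Of the genes of the death receptor route and the apoptosome, Fas and Casp8 rose and Apaf1 fell in both genotypes. Fas went from 11.1, 11.5 and 12.01 CPM to 18.8, 18.1 and 18.0 CPM in WT (0.66, adjusted p = 7.13e-04) and from 11.1, 7.20 and 9.74 CPM to 16.5, 17.5 and 13.8 CPM in KO (0.76, adjusted p = 2.17e-04). With the astrocyte-marker covariate the KO value was 0.49 (adjusted p = 0.0589). Casp8, the initiator caspase of the death receptors, rose by 0.26 in WT and by 0.23 in KO (adjusted p = 0.00921 and 0.0202). These calls were lost without WT-recovery replicate 2 (0.22, adjusted p = 0.0543) in WT, and without KO-OGD replicate 1 or KO-recovery replicate 1 or 3 (0.17 to 0.23, adjusted p = 0.0502 to 0.0886) in KO. Tnfrsf10b, the mouse TRAIL receptor gene, rose in KO by 0.46 (adjusted p = 0.0317), a call lost without KO-OGD replicate 2 or 3 or KO-recovery replicate 1 or 3 (0.39 to 0.49, adjusted p = 0.0534 to 0.0991), and it stood at -0.40 in WT (adjusted p = 0.0705), where it passed without WT-OGD replicate 1 (-0.56, adjusted p = 0.0128). Apaf1 fell from 59.3, 53.4 and 54.0 CPM to 36.6, 43.2 and 41.7 CPM in WT (-0.45, adjusted p = 0.00784) and by 0.39 in KO (adjusted p = 0.0176), where the groups overlap. The KO call was lost without KO-OGD replicate 2 or KO-recovery replicate 2 (both -0.27, adjusted p = 0.0875 and 0.064), and with the covariate its value was -0.06.

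Of the inhibitors of apoptosis, Xiap, the direct caspase inhibitor, fell from 93.4, 85.0 and 78.8 CPM to 47.3, 56.3 and 57.4 CPM in WT (-0.67, adjusted p = 0.00353) and from 68.0, 88.4 and 72.9 CPM to 36.2, 31.3 and 53.8 CPM in KO (-0.91, adjusted p = 3.68e-04). With the covariate the KO fall was -0.45 (adjusted p = 0.0473). Birc3 (cIAP2), an NF-κB target, rose in KO from 36.6, 31.6 and 35.3 CPM to 50.9, 49.1 and 39.4 CPM (0.43, adjusted p = 0.00222), with the value in WT at -0.00 and an adjusted p of 0.106 for the difference. With the covariate Birc3 stood at 0.27 in KO (adjusted p = 0.186). Diablo, the gene of the mitochondrial IAP antagonist, passed in KO (0.22, adjusted p = 0.0398), but not without any one of KO-OGD replicates 1 and 2, the WT-recovery replicates or the KO-recovery replicates (0.16 to 0.24, adjusted p = 0.0521 to 0.151). Birc2 (cIAP1) did not pass in either genotype.

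**Figure D2:**
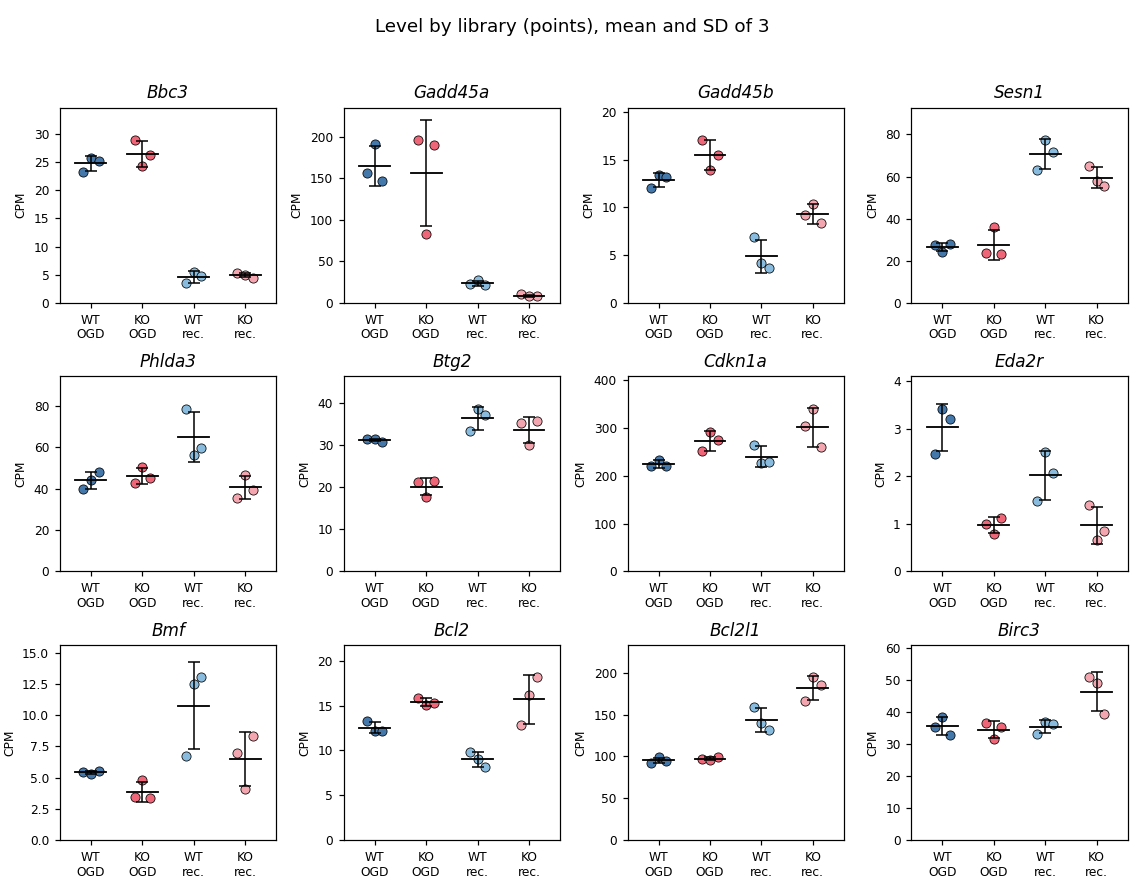
Level in CPM (vertical axis, from 0) of 12 of the genes in each library (points), with mean and SD of 3 libraries, for the 4 groups. Bbc3 is at most 5.49 CPM in the 6 recovery libraries, Eda2r is lower in KO than WT at both times, and Gadd45a has 1 low library in KO-OGD.

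Right after OGD, KO and WT differed in 2 of the 33 genes, both lower in KO, against 7.49% of all genes called (0.966% higher, 6.52% lower). Eda2r, the X-linked gene of a receptor of the TNF receptor family and a p53 target, lay at 2.46, 3.42 and 3.20 CPM in WT and 0.994, 0.789 and 1.12 CPM in KO (log2 fold change -1.63, SE 0.25, adjusted p = 0.00106). These levels rest on 101, 116 and 154 reads in WT and 42, 24 and 41 in KO. Btg2 lay at 31.4, 31.5 and 30.9 CPM in WT and 21.3, 17.8 and 21.5 CPM in KO (-0.63, SE 0.09, adjusted p = 9.27e-04). For both genes the groups did not overlap, as for 10 of the 33 members and 30.4% of all genes. Astrocyte, neuron and proliferation markers were lower in the same KO libraries and Xist was higher, at 242, 231 and 244 CPM against 159, 150.8 and 159 in WT. The Y-linked Ddx3y had 908, 888 and 871 reads in KO against 1895, 1339 and 1825 in WT. Sex make-up and genotype thus cannot be told apart here, and Eda2r is X-linked. Once astrocyte markers entered the model as a covariate, the calls of Eda2r and Btg2 ended, at -0.74 (adjusted p = 0.658) and -0.63 (adjusted p = 0.306). The marker sums did not overlap between WT-OGD and KO-OGD, so these losses cannot tell astrocyte RNA from genotype.

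The other 31 members did not pass after OGD, with log2 fold changes between -0.50 (Bmf) and 0.30 (Bcl2), and the median of all 33 was -0.01. Some were close to the threshold. Bad lay at 17.4, 17.5 and 18.0 CPM in WT and 21.4, 21.03 and 20.7 CPM in KO without overlap (0.25, adjusted p = 0.0619). Cdkn1a lay at 219.8, 233 and 219.7 CPM in WT and 251, 291 and 274 CPM in KO (0.28, adjusted p = 0.131). Trp53inp1 lay at 48.3, 53.1 and 42.0 CPM in WT and 37.5, 38.0 and 39.6 CPM in KO (-0.32, adjusted p = 0.0914). Each of these 3 passed without KO-recovery replicate 3, which raised the number of members called from 2 to 5, with values of 0.25, 0.28 and -0.31 (adjusted p = 0.0439, 0.0445 and 0.0482).

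After recovery, 5 of the 33 genes were higher in KO than in WT and 5 were lower, against 22.2% of all genes called (10.1% higher, 12% lower). The genes higher in KO were the survival genes Bcl2 and Bcl2l1, the caspase and NF-κB regulator Birc3, the stress-inducible gene Gadd45b and the p53 target Cdkn1a. The genes lower in KO were the p53 targets Gadd45a, Eda2r, Phlda3, Zmat3 and Trp53inp1. The 11 genes listed as p53 targets in arrest, repair and stress, with Gadd45b among them, thus went both ways, 2 higher and 5 lower. No gene of the BH3-only or Bax and Bak group passed. Leaving out single libraries brought in Bcl2l11 (-0.36, adjusted p = 0.0328, against -0.20 with all libraries) and Mdm2 (0.25, adjusted p = 0.0465) without WT-recovery replicate 1. It also brought in Ccng1 without KO-recovery replicate 3 (-0.26, adjusted p = 0.0311, against -0.16), Tnfrsf10b without WT-OGD replicate 1 (0.49, adjusted p = 0.0442) and Bcl2a1b without KO-OGD replicate 2 (-0.20, adjusted p = 0.0491). The median log2 fold change of the 33 was -0.09, against 0.01 over all genes, and 14 of the 33 did not overlap between groups, as for 33.5% of all genes.

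**Figure D3:**
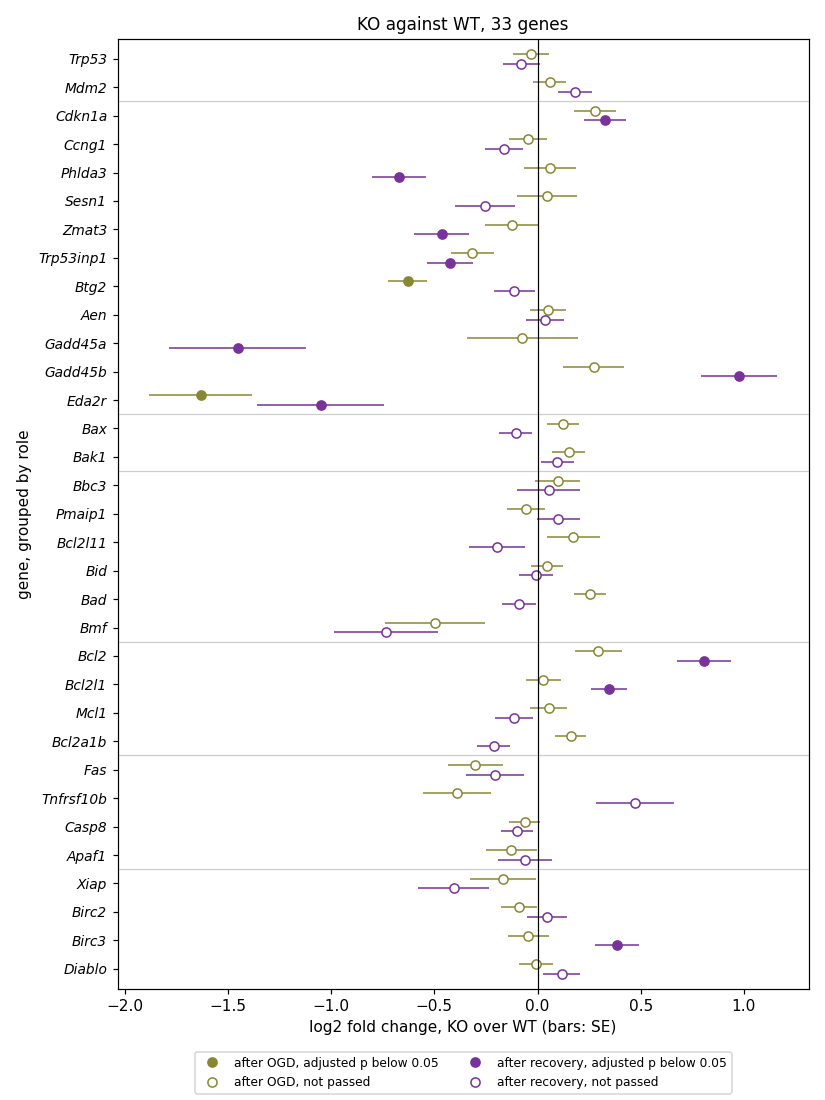
Log2 fold change of KO over WT (horizontal axis, bars are SE) for the 33 genes, after OGD (olive) and after recovery (purple); filled points passed an adjusted p of 0.05. After OGD the filled points are Eda2r and Btg2, and after recovery they are 5 higher and 5 lower genes.

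Bcl2 lay at 9.82, 9.03 and 8.14 CPM in WT-recovery and 12.8, 16.2 and 18.2 CPM in KO-recovery (0.81, SE 0.13, adjusted p = 5.20e-04). Gadd45b lay at 6.85, 4.15 and 3.62 CPM in WT and 9.17, 10.4 and 8.35 CPM in KO (0.98, SE 0.19, adjusted p = 0.00171). Both kept their calls without any one library, and all KO libraries lay above all WT libraries. With the astrocyte-marker covariate Bcl2 stood at 0.60 (adjusted p = 0.0797), while Gadd45b held its call. Bcl2l1 was higher in KO by 0.35 (SE 0.09, adjusted p = 0.00933), at 166, 195 and 185 CPM against 159, 139.5 and 131. Its call was lost without WT-recovery replicate 2 or 3 (0.32 and 0.28, adjusted p = 0.0504 and 0.0551). Birc3 was higher by 0.38 (SE 0.11, adjusted p = 0.0170), at 50.9, 49.1 and 39.4 CPM against 33.2, 36.9 and 36.3, with the call lost without WT-recovery replicate 1 or KO-recovery replicate 1 or 2 (0.31 to 0.34, adjusted p = 0.055 to 0.0888). Cdkn1a lay at 265, 226 and 229 CPM in WT and 304, 340.1 and 259 CPM in KO, where the groups overlap (0.33, SE 0.10, adjusted p = 0.0320). Its call was lost without WT-recovery replicate 2 or 3 or KO-recovery replicate 1 or 2 (0.23 to 0.32, adjusted p = 0.0842 to 0.14) and with the covariate (0.52, adjusted p = 0.0587), while it was 0.50 (adjusted p = 0.00721) without both libraries with muscle and connective tissue transcripts.

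Of the genes lower in KO, Phlda3 lay at 78.7, 56.3 and 59.5 CPM in WT-recovery and 35.5, 46.8 and 39.6 CPM in KO-recovery (-0.67, SE 0.13, adjusted p = 0.00210), and kept its call without any one library. With the 2 KO libraries that held muscle and connective tissue transcripts left out it stood at -0.46 (adjusted p = 0.0829), and with the covariate at -0.52 (adjusted p = 0.152). Gadd45a lay at 22.3, 27.1 and 21.7 CPM in WT and 10.0, 7.92 and 7.98 CPM in KO (-1.45, SE 0.33, adjusted p = 0.0112), with the call lost without KO-recovery replicate 3 (-1.39, adjusted p = 0.0544). With the covariate its value was -0.94 (adjusted p = 0.355). Zmat3 lay at 59.6, 58.8 and 54.4 CPM in WT and 37.5, 36.9 and 50.5 CPM in KO (-0.46, SE 0.13, adjusted p = 0.0203), with the call lost without WT-recovery replicate 1 or 2 or KO-recovery replicate 1 or 2 (-0.39 to -0.46, adjusted p = 0.0511 to 0.0911). Trp53inp1 was lower by -0.42 (SE 0.11, adjusted p = 0.0134), lost without WT-recovery replicate 2 or 3 (-0.36 and -0.40, adjusted p = 0.0709 and 0.0513).

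Eda2r, at 13, 41 and 28 reads in WT-recovery against 28, 8 and 16 in KO-recovery, was lower by -1.05 (SE 0.31, adjusted p = 0.0233). This call was lost without WT-recovery replicate 2 or 3 or KO-recovery replicate 2 or 3 (-0.87 to -1.06, adjusted p = 0.055 to 0.123), with libraries thinned to equal depth (-0.75, adjusted p = 0.145) and with the covariate (-0.49, adjusted p = 0.564). Xiap, the other X-linked member, stood at -0.41 (adjusted p = 0.104), and at -0.67 (adjusted p = 0.00149) without KO-recovery replicate 3. Its value was -1.04 (adjusted p = 0.00814) with the covariate, -0.79 (adjusted p = 0.00633) without both libraries with muscle and connective tissue transcripts, and -0.39 (adjusted p = 0.00252) with no filter on low counts. In all, 10 members were called, 5 without WT-recovery replicate 2, 6 without WT-recovery replicate 3 or KO-recovery replicate 2, and 6 with the covariate. Those 6 were 4 of the original 10 with Bmf and Xiap added. Astrocyte, neuron and oligodendrocyte-lineage markers were lower and Xist was higher in these KO libraries. The astrocyte-marker sums did not overlap between the genotypes, so calls lost with the covariate cannot tell astrocyte RNA from genotype. The part of Xist and of neuron, oligodendrocyte-lineage and proliferation transcripts in any of these results was not tested.

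Bmf did not pass after recovery (-0.73, SE 0.25, adjusted p = 0.0506), at 6.74, 12.5 and 13.0 CPM in WT and 6.99, 4.08 and 8.30 CPM in KO. It passed without WT-recovery replicate 1 (-0.96, adjusted p = 0.00834), without KO-recovery replicate 3 (-0.95, adjusted p = 0.0191) and without KO-OGD replicate 2 (-0.72, adjusted p = 0.0454). It also passed without both libraries with muscle and connective tissue transcripts (-1.43, adjusted p = 0.0131), with the covariate (-1.35, adjusted p = 0.0483), and with DESeq2 or no filter on low counts (both -0.72). Of the 33 genes, 3 were called in no comparison: Bid, Mcl1 and Birc2.

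A further 74 genes of the same pathways, 68 of which were tested, showed what surrounded the members. Over recovery 21 rose and 25 fell in WT, and 30 rose and 23 fell in KO, where 56.8% and 59.0% of all genes were called. For the lists below, the shares of all genes are 26.9% higher and 29.9% lower in WT, and 29.3% higher and 29.6% lower in KO. The 25 other p53 targets had 10 rises and 11 falls in WT and 9 rises and 7 falls in KO. Gdf15, a secreted stress cytokine, fell from 87.6, 91.2 and 94.1 CPM to 3.08, 4.46 and 3.40 CPM in WT (-4.60, adjusted p = 2.80e-10) and from 125, 104 and 109.9 CPM to 3.17, 4.65 and 1.93 CPM in KO (-5.17, adjusted p = 5.92e-11). Sesn2, a sestrin gene like Sesn1, fell by 2.32 in WT (adjusted p = 4.22e-09), while Sesn1 rose. In KO the mean of Sesn2 went from 138 to 26.9 CPM. Ddit4, an inhibitor of mTORC1 signalling, fell by 3.12 in KO (adjusted p = 1.00e-09). In WT the mean of Ddit4 went from 11.7 to 2.58 CPM. Gdf15, Sesn2 and Ddit4 are also induced by the integrated stress response or by hypoxia.

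The mitochondrial BH3-like genes Bnip3 and Bnip3l, targets of the hypoxia factor HIF, fell by 1.37 and 0.79 in WT and by 1.41 and 0.88 in KO, and in all 4 cases the groups did not overlap. In the list of 12 other BCL2 family genes, 8 of them tested, 4 fell in WT and 6 in KO and none rose. Of 8 other caspases tested, 3 rose and 1 fell in WT and 6 rose and 1 fell in KO. Casp4, an inflammatory caspase that senses lipopolysaccharide, fell in WT from 58.9, 63.5 and 55.7 CPM to 11.5, 15.6 and 12.9 CPM (-2.14, adjusted p = 4.56e-07). In KO its mean went from 41.7 to 21.9 CPM.

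Of 10 death receptor genes tested, 4 rose and 3 fell in WT and 6 rose and 4 fell in KO. Mlkl, the effector of necroptosis, rose by 0.91 in WT and by 1.56 in KO (adjusted p = 1.70e-06 and 4.24e-09). The necroptosis kinase gene Ripk3 rose by 1.62 in KO (adjusted p = 1.01e-07), and Cflar, the Casp8 inhibitor FLIP, fell by 0.44 in WT (adjusted p = 2.36e-04). The mean of Ripk3 in WT went from 14.7 to 24.0 CPM, and that of Cflar in KO from 85.5 to 70.3 CPM. Of 12 other inhibitors and mitochondrial effectors, 3 rose and 4 fell in WT and 6 rose and 3 fell in KO. Naip2 and Naip6, sensors of bacterial proteins with near copies of each other, fell in WT by 1.06 and 0.84, and Naip2 fell by 0.92 in KO. Birc5 (survivin), a mitotic gene that is also on the proliferation list, rose by 2.00 in KO and by 1.15 in WT. Of 5 damage kinases, 1 rose and 2 fell in WT and 3 rose and 2 fell in KO, with Atr and Atm lower by 1.30 and 1.62 in WT and by 0.96 and 1.27 in KO.

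**Figure D4:**
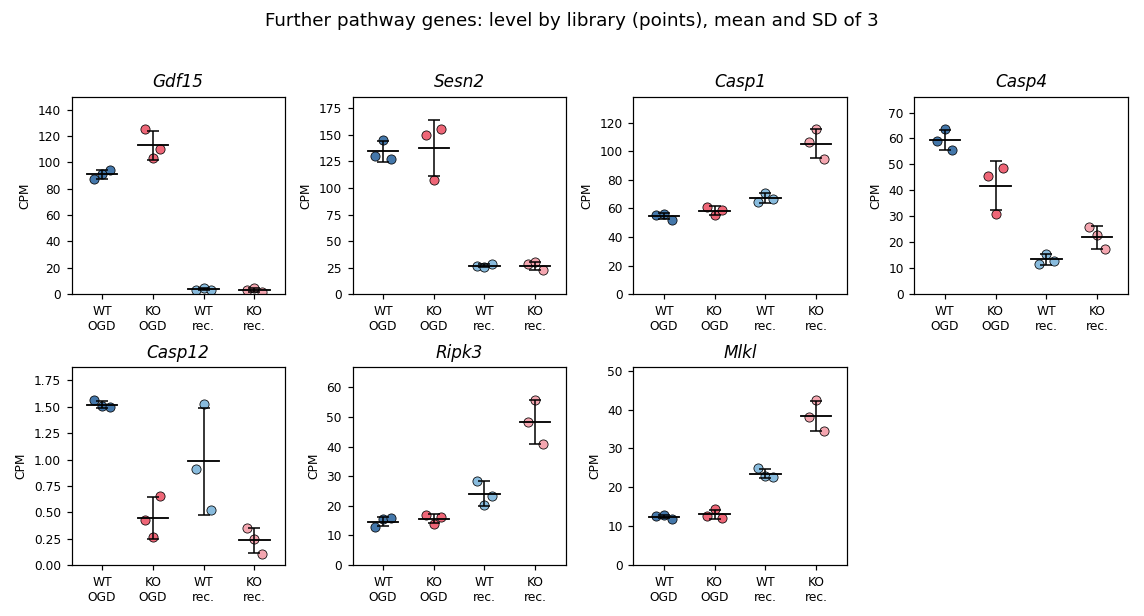
Level in CPM (vertical axis, from 0) of 7 further pathway genes in each library (points), with mean and SD of 3 libraries per group. Casp1, Ripk3 and Mlkl are highest in KO-recovery, Casp12 is lower in KO at both times, and Gdf15 and Sesn2 are high only in the OGD libraries.

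Between genotypes, 1 of the 68 further genes was higher and 7 lower in KO after OGD, against 7.49% of all genes called (0.966% higher, 6.52% lower). The 8 calls became 4 without WT-OGD replicate 3. The p53 targets Sesn3 and Perp were lower by -1.04 and -1.03 (adjusted p = 0.00309 and 0.00447), Casp12 by -1.73 (adjusted p = 0.00737) and Birc5 by -1.39 (adjusted p = 7.02e-05). Casp12 lay at 1.56, 1.505 and 1.497 CPM in WT and 0.426, 0.263 and 0.656 CPM in KO, and its call ended with libraries thinned to equal depth (-1.19, adjusted p = 0.234). With the astrocyte-marker covariate all 4 of these calls ended. After recovery 14 were higher and 8 lower in KO, against 22.2% of all genes called (10.1% higher, 12% lower). These 22 calls became 14 without WT-recovery replicate 2, also 14 without KO-recovery replicate 1, and 12 with the covariate. Ripk3 lay at 28.5, 20.2 and 23.3 CPM in WT and 48.4, 55.6 and 41.0 CPM in KO (1.02, SE 0.14, adjusted p = 1.55e-04). Mlkl lay at 24.9, 23.0 and 22.6 CPM in WT and 38.2, 42.4 and 34.5 CPM in KO (0.71, SE 0.10, adjusted p = 1.67e-04). Casp1, the inflammasome caspase, lay at 64.5, 71.0 and 66.4 CPM in WT and 106, 115 and 94.6 CPM in KO (0.64, SE 0.08, adjusted p = 1.08e-04). For each of these 3 genes all KO-recovery libraries lay above all WT-recovery libraries.

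Htra2, a mitochondrial protease gene whose protein binds Xiap, was higher by 0.62 (adjusted p = 0.00157), and the damage kinase genes Prkdc and Atr by 0.35 and 0.34 (adjusted p = 0.0286 and 0.0333). The call of Prkdc was lost without WT-recovery replicate 2 or 3 or KO-recovery replicate 3 (0.29 to 0.35), and that of Atr without any WT-recovery replicate or without KO-recovery replicate 1 or 3 (0.24 to 0.37). With the covariate Prkdc stood at 0.11 and Atr at 0.18 (adjusted p = 0.734 and 0.545), and without both libraries with muscle and connective tissue transcripts Atr stood at 0.17 (adjusted p = 0.457). The lower genes included Sesn3 at -1.68 (adjusted p = 4.49e-05), Cyfip2, an actin regulator and p53 target, at -1.26 (adjusted p = 6.98e-05), Casp12 at -2.09 (adjusted p = 0.0106) and Birc5 at -0.53 (adjusted p = 0.0168). The call of Casp12 was lost without WT-recovery replicate 2 (-1.54, adjusted p = 0.1001), and that of Birc5 without replicate 1 of WT-recovery or KO-recovery (-0.45 and -0.53, adjusted p = 0.0572 and 0.0523). Casp12 rested on 8, 25 and 7 reads in WT-recovery and on 7, 3 and 2 in KO-recovery. With the covariate Casp12 stood at -1.06 (adjusted p = 0.390) and Birc5 at -0.34 (adjusted p = 0.425).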

How the data were processed

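The authors deposited raw read counts, whole numbers without normalization. HISAT2, featureCounts and the build GRCm38 are named, per the submitters' processing notes; versions, annotation release and counting options are not given in the sources used here. The kit named in the labels is for stranded total RNA, although the molecule field says polyA RNA. Samples were grouped by title; the treatment field of WT-recovery replicate 1 names no recovery, against its title and library name. Gene identifiers were matched without version to GENCODE M21 (GRCm38), 55240 of 55421, for symbols, coordinates and exon lengths.

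Counts were analysed with edgeR 4.0.16 in R 4.3.3: filterByExpr (18842 genes), TMM factors, and 1 robust quasi-likelihood fit over all 12 libraries with 1 mean per group and no covariate, which share 1 estimate of the spread. There were 5 contrasts: KO against WT after OGD and after recovery, recovery against OGD in WT and in KO, and the difference of the latter (KO less WT). Genotype and recovery contrasts share libraries. Each SE was obtained as the absolute log2 fold change divided by the square root of F. CPM uses TMM-adjusted library sizes. The fit was tested on simulated counts. DESeq2 1.42.0 and the other alternatives are given in the closing section. All members are accounted for; of each further list, the 2 called genes with the smallest adjusted p per contrast are named, and Bcl2a1a and Bcl2a1d are given as near-identical copies of a member. A result under this rule is not reported here. Members and lists were chosen with earlier results of these data known. Replicate pairs differed by more than sampling noise (chi-square per degree of freedom 6.66 to 60.2), so each library counted as 1 sample.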

Additional observations from a re-analysis of the deposited data

Results flagged for a closer look

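For 2 members and 12 further pathway genes the genotype difference itself differed between the time points, by the interaction term of edgeR's quasi-likelihood fit with adjusted p below 0.05. Values are the log2 difference of KO over WT after recovery less that after OGD. Phlda3 had -0.73 and Btg2 0.52. Of the other p53 targets, Ddit4 had -0.97, Rps27l -0.76 and Cyfip2 -1.24, while Pidd1 had 1.06, Gtse1 1.04 and the p53 inhibitor Mdm4 0.63. The caspase genes Casp1 and Casp4 had 0.54 and 1.21, and the necroptosis genes Ripk3 and Mlkl 0.93 and 0.64. The mitotic gene Birc5 had 0.85 and the checkpoint kinase gene Chek1 1.12. The interaction call of Chek1 was lost without any one of 11 of the 12 libraries, of Btg2 without 10, of Ddit4 without 7, of Phlda3 without 6, of Birc5 without 5, and of Rps27l and Casp1 without 1 (WT-OGD replicate 3 and replicate 2). Those of Casp4, Ripk3 and Mlkl held without each single library but ended with the astrocyte-marker covariate (0.92, 0.68 and 0.62). Rps27l and Casp1 also lost their calls with the covariate (-0.62 and 0.46). Without both libraries of highest mitochondrial share the calls of Casp4 and Casp1 ended (1.08 and 0.42, adjusted p = 0.0844 and 0.0605). That of Casp1 ended with libraries thinned to equal depth too (0.40, adjusted p = 0.102). The calls of Pidd1, Gtse1, Mdm4 and Cyfip2 held under all alternatives run. Proliferation genes were lower in KO-OGD than in WT-OGD libraries and at a like level in both recovery groups, and their part in the values of Gtse1, Birc5 and Chek1 was not tested. Groups of 3 libraries are too small for the test of single outlying libraries.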

How the results depend on the processing

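No called member reversed under any of the alternatives run. Of the members called, 2 after OGD, 10 between genotypes after recovery, 22 over recovery in WT, 22 in KO and 2 for the difference, those called under every alternative numbered 0, 1, 18, 11 and 0. With the summed astrocyte-marker level as a covariate the counts were 0 after OGD, 6 between genotypes after recovery, 14 over recovery in KO and 1 for the difference. Of the original calls this kept 4 of 10 after recovery, with Bmf and Xiap added, and 13 of 22 in KO, with Ccng1 added. The astrocyte-marker sums did not overlap between KO and WT at either time, nor between KO-OGD and KO-recovery. Calls lost with this covariate thus cannot tell astrocyte RNA from genotype, or from recovery in KO. After OGD the count was 4 with DESeq2, 4 without both libraries of highest mitochondrial share, 4 without both libraries with other-tissue transcripts, and 6 with only the 6 libraries compared. For the difference it was 6 with DESeq2, 5 with no filter on low counts, and 0 without both libraries with other-tissue transcripts, with libraries thinned to equal depth or with the replicate block. Leaving out single libraries gave 2 to 5 after OGD, 5 to 12 between genotypes after recovery, 21 to 23 over recovery in WT, 16 to 22 in KO and 0 to 4 for the difference. Over recovery in KO, the calls of Aen (0.19), Bad (0.27), Tnfrsf10b (0.27), Casp8 (0.14) and Diablo (0.18) also ended without both libraries with other-tissue transcripts. The causes of these changes were not tested. Same-numbered libraries did not pair: their deviations correlated at -0.23 to 0.16, with 1 of 18 pairs over 0.1. Depth limits the low genes after recovery, such as Eda2r at 8 to 41 reads.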
